A study of Mus musculus with 14 samples.

Results

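The genes described here encode the proteins that hold, prime, fuse and recycle synaptic vesicles at the presynaptic terminal. They are 51 genes in 10 families, of the 24100 genes in the count table, and all 51 were found by their Entrez identifiers. The genes were listed by name, but with earlier results of these data known. The families are the synaptotagmins, the Doc2 proteins with rabphilin, the SNARE proteins, tomosyn with the complexins, NSF with the SNAP adaptors, the Munc13 proteins, the active zone scaffolds, the synapsins, synaptophysin with its relatives, and the SV2 proteins.

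RNA was sequenced from cerebella of Astn2 knockout (KO) mice and their wild-type (WT) littermates at postnatal day 21. Every mouse carried Tg(Pcp2-L10a-EGFP), a bacTRAP transgene in which the Pcp2 promoter drives ribosomal protein L10a fused to EGFP; Pcp2 is a gene of Purkinje cells, the output neurons of the cerebellar cortex. In translating ribosome affinity purification (TRAP), antibodies to GFP pull down the tagged ribosomes together with their RNA, which is then sequenced. Input is RNA of the whole cerebellum, from a small part of the lysate kept back before the purification. There were 4 input WT libraries (1 female, 3 male), 3 input KO libraries (2 female, 1 male), 3 TRAP WT libraries (1 female, 2 male) and 4 TRAP KO libraries (2 female, 2 male). The labels give neither the Astn2 allele nor the number of animals behind a library, and they do not say whether an input and a TRAP library of the same number came from the same mouse. Therefore p-values measure the spread between libraries, which may be partly technical.

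A nerve terminal releases transmitter when calcium binds a sensor of the synaptotagmin or Doc2 type and the SNARE proteins of the vesicle and the plasma membrane zip together. Complexins and tomosyn act on the SNARE complex, Munc13 proteins make vesicles ready to fuse, and RIM, ELKS, bassoon and piccolo build the active zone where fusion takes place. Purkinje cells make inhibitory terminals in the cerebellar nuclei, whereas granule cells, the most numerous neurons of the cerebellum, form excitatory parallel fiber terminals, so input RNA mixes the release machinery of both and of the inhibitory interneurons.

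Library totals ran from 18.8 to 54.2 M counts (M, mega), so that 3 counts, the least taken as detected, correspond to between 0.0438 and 0.205 CPM (counts per M counts, scaled with TMM factors). The check of the genotype, Astn2, lay between 88.7 and 146 CPM in the 7 WT libraries and between 0.729 and 2.11 CPM in the 7 KO libraries. Of the marker lists, all 8 Purkinje cell genes were higher in TRAP than in input in both genotypes, and their summed level rose from between 6453 and 7773 CPM to between 71700 and 90030 CPM. All 8 granule cell genes and all 8 interneuron genes were lower in TRAP, but none was at 0: the summed granule cell level was 5239 to 5640 CPM in input and 797 to 1479 CPM in TRAP. The lowest 2 of those TRAP sums were 797 CPM in KO library 4 and 918 CPM in WT library 3, and results that rest on these libraries are given with and without them.

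Most of the release machinery was lower in Purkinje cell TRAP RNA than in whole cerebellum, with a small set of genes that ran the other way. In WT, 30 of the 51 genes were lower in TRAP, 12 were higher and 9 passed in neither direction (edgeR quasi-likelihood test, adjusted p under 0.05 over the 16042 genes tested). Over all genes tested, 38.5% were called lower and 37% higher (75.5% in all), so the members' shares of 58.8% lower and 23.5% higher lean toward input. Their median log2 fold change was -0.95, against -0.09 over all genes. In KO, 31 were lower, 10 higher and 10 without a call, with a median of -0.91, beside 39.6% lower and 36.3% higher (75.9% in all) over all genes. The 2 groups of libraries did not overlap for 29 lower and 12 higher members in WT (38.2% and 34.4% of all genes) and for 31 and 11 in KO (40.2% and 37.8%). Together the 51 genes took 1.67% to 1.74% of the counts of an input library and 0.881% to 1.12% of those of a TRAP library. Such bulk values do not show how many of the tagged cells held a member's RNA, or how much RNA each of them held.

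The same genes carried the pattern in both genotypes. Of the members, 30 were lower and 9 were higher in both, 7 had no call in either, and none had opposite calls. Vamp4, Napa and Unc13b passed in WT but not in KO, and Snap47 and Sv2c in KO but not in WT; the difference between genotypes was tested as an interaction and passed for none of the 51 genes, as for none of the 16042 genes tested (0%), and for each of these 5 genes leaving out a single library changed a call in WT or KO. With library totals in place of TMM factors the whole distribution shifted down, its median by -0.82 (WT) and -0.73 (KO), which by itself keeps lower calls and removes higher ones. Under that scaling 19.5% of all genes were called higher and 61.1% lower in WT, and 19.5% and 60.3% in KO. Of the members 4 were higher in each genotype, Doc2b, Cplx1, Vamp2 and Syt7, and 41 were lower in WT and 38 in KO. The members' median was then -1.77 in WT, against -0.91 over all genes, and -1.64 in KO, against -0.84. Each fold change is therefore relative to the bulk of the genes; it is given on the log2 scale with its standard error, and a gene is said to rise or fall where TRAP passed against input.

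**Figure D1:**
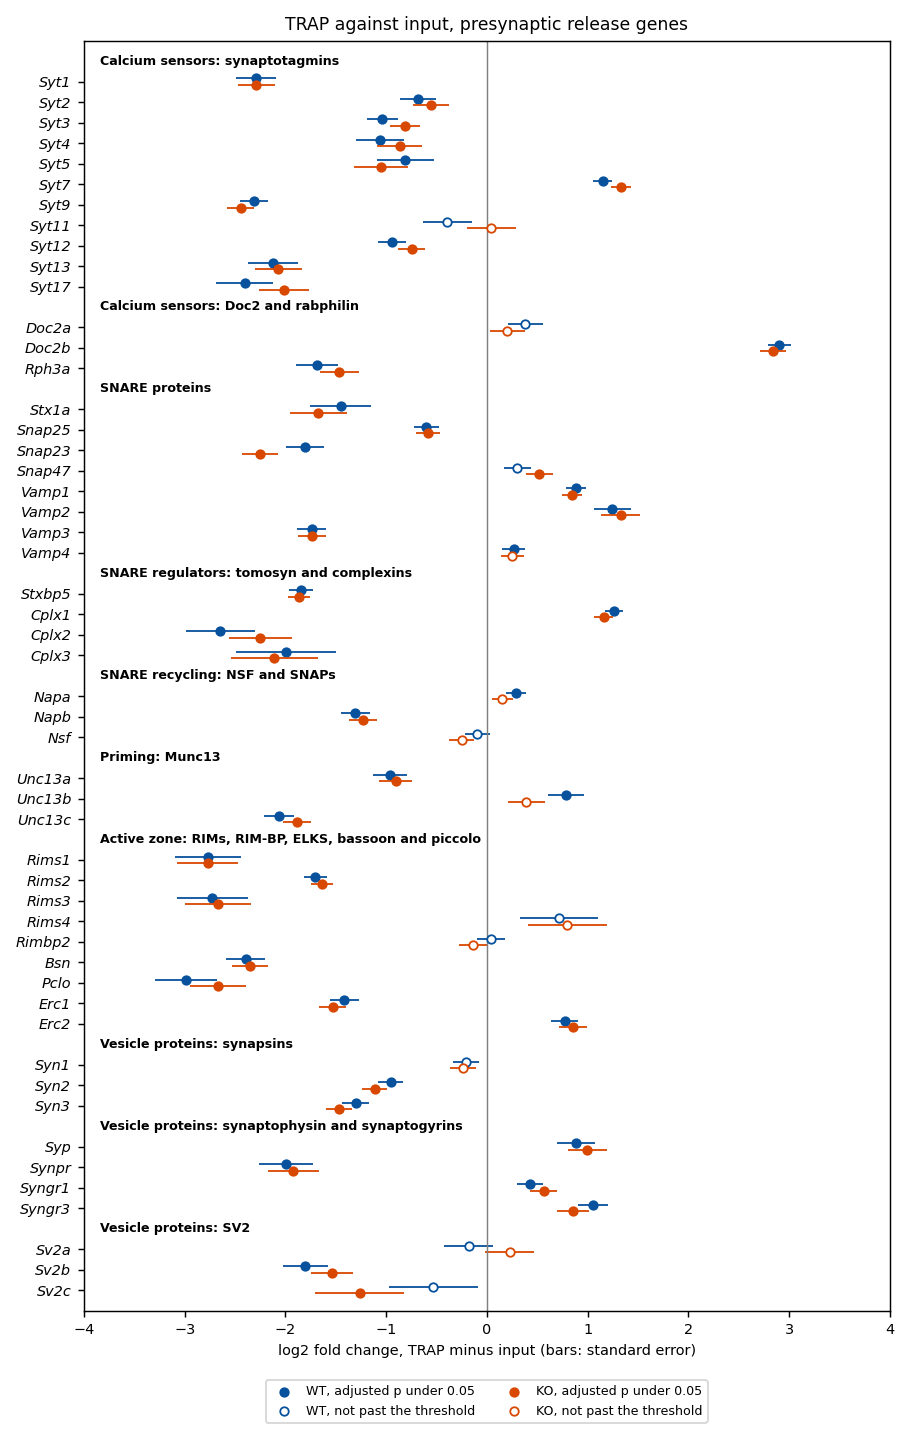
Log2 fold change of TRAP over input for each of the 51 genes, by family, with its standard error, in WT (blue) and KO (orange); filled points passed an adjusted p of 0.05. Doc2b stands alone at the right (2.90 in WT), and the points of most families lie to the left of 0.

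The synaptotagmins are vesicle proteins with calcium-binding C2 domains; Syt1, Syt2 and Syt9 trigger fast release, and Syt7 is a slow sensor of high calcium affinity. Of 11 synaptotagmins, 9 were lower in TRAP in both genotypes, 1 was higher and 1, Syt11, had no call, although it passed as lower in WT without TRAP WT library 2 (-0.84, edgeR adjusted p = 0.00591). Syt7 (Entrez 54525, chromosome 19) was the exception. It measured 277, 277, 296 and 320.2 CPM in the input WT libraries (values are in the order of library number throughout) and 247, 274 and 265 CPM in input KO. In TRAP it measured 651, 667 and 624 CPM in WT and 638, 685, 703 and 618 CPM in KO. Every TRAP library lay above every input library. The log2 fold change was 1.15 ± 0.10 in WT (edgeR adjusted p = 1.08e-07) and 1.33 ± 0.10 in KO (adjusted p = 4.72e-08). Syt7 was also the highest synaptotagmin per length in TRAP WT, at 97.7 ± 3.28 CPM per kb of longest transcript (SD, n = 3), ahead of Syt11 at 55.5 ± 23.7; in input WT it stood at 44.2 ± 3.09 (SD, n = 4), behind Syt11 at 72.6 ± 8.38. This order in input depends on the transcript taken: with the median transcript length Syt7 led in input WT as well (172 against 89.5 CPM per kb for Syt11).

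The fast sensors moved the other way. Syt1 fell from 277 ± 13.1 CPM (n = 4, SD) in input WT to 57.3 ± 11.2 CPM (n = 3, SD) in TRAP WT, a log2 fold change of -2.29. Syt9 fell (-2.31 in WT) and so did Syt2 (-0.68), whose KO call was lost without input KO library 2 (-0.42, adjusted p = 0.0633). The ratio of Syt1 to Syt2 within a library, which does not depend on any scaling between libraries, was above 1 in all 7 input libraries and below 1 in all 7 TRAP libraries. Of the members that do not bind calcium in the usual way, Syt13 (-2.12), Syt4 (-1.06) and Syt12 (-0.94) fell in WT. Syt17 had the lowest ratio of the family in WT, though not in KO, where Syt9, Syt1 and Syt13 were below it. It was measured at 6.28, 6.33, 4.66 and 4.20 CPM in input WT, 6.70, 6.18 and 6.38 in input KO, 1.09, 0.675 and 1.24 in TRAP WT and 1.13, 2.04, 1.94 and 1.195 in TRAP KO. Input and TRAP did not overlap, and the fold change was -2.40 ± 0.28 in WT (edgeR adjusted p = 3.14e-06) and -2.01 ± 0.25 in KO (adjusted p = 5.19e-06). Syt3 and Syt5 were lower too (-1.04 and -0.81 in WT), but Syt5 did not pass in WT without TRAP WT library 3 (-0.50, adjusted p = 0.0967) or input WT library 4 (-0.66, adjusted p = 0.0544). Exons of Syt4 and Syt12 share 14.5% and 17.2% of their bases with a gene on the other strand, and since the counting strand is not given in the sources used here, their counts are uncertain.

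Doc2 proteins are soluble calcium sensors for spontaneous and delayed release, and rabphilin (Rph3a) binds the vesicle GTPase Rab3. Doc2b (Entrez 13447, chromosome 11) had the highest TRAP over input ratio of all 51 members. Its levels were 161, 167, 174 and 162 CPM in input WT and 182, 187 and 206 CPM in input KO. In TRAP it reached 1119, 1134 and 1450.0 CPM in WT and 1290.0, 1344, 1283 and 1682 CPM in KO. All TRAP libraries were far above all input libraries, with WT library 3 and KO library 4 the highest of their groups. The log2 fold change was 2.90 ± 0.12 in WT (edgeR adjusted p = 1.89e-10) and 2.84 ± 0.13 in KO (adjusted p = 6.67e-10), 7.49-fold in WT. It was the one member inside the range of the 8 Purkinje cell markers (2.28 to 4.99 in WT, 1.82 to 4.52 in KO). The share of all genes inside that range was not counted. Doc2a, the other isoform, was low in both fractions, at 8.26 ± 0.624 CPM (n = 4, SD) in input WT and 10.8 ± 1.68 CPM (n = 3, SD) in TRAP WT, and passed in neither genotype; in WT it passed as higher without TRAP WT library 1, TRAP KO library 1 or TRAP KO library 4 (adjusted p = 0.0401, 0.0298 and 0.048), and 39.4% of its exon bases lie opposite exons of Ino80e. Rph3a fell (-1.69 in WT and -1.47 in KO). In input WT, Rph3a led the family per length (119 ± 2.60 CPM per kb, SD, n = 4), and in TRAP WT Doc2b did (283 ± 42.8 against 37.6 ± 12.4 CPM per kb, SD, n = 3).

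**Figure D2:**
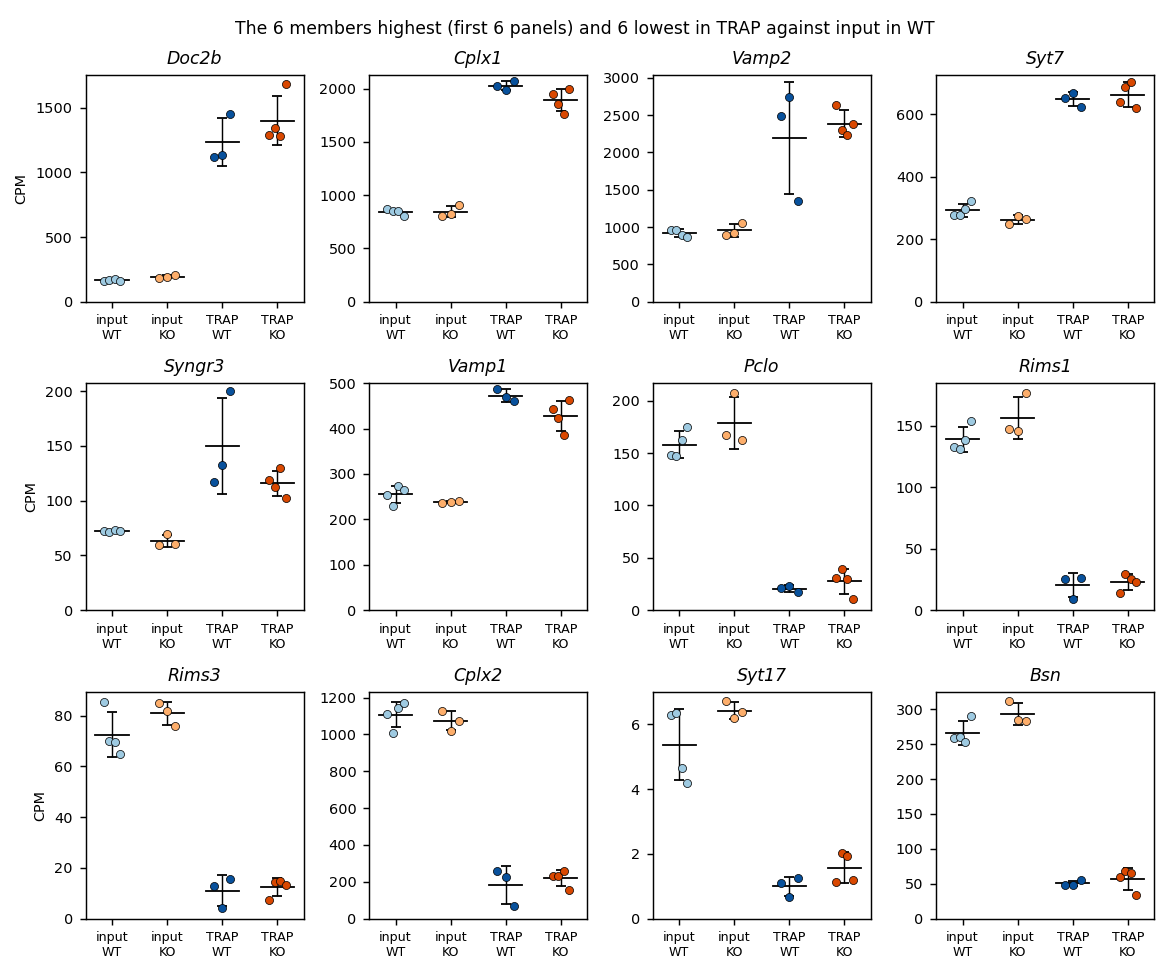
CPM in every library (points), group means and standard deviations (lines and bars) for the 6 members with the highest TRAP over input ratio in WT (Doc2b to Vamp1) and the 6 with the lowest (Pclo to Bsn); each axis starts at 0. In all 12 panels the TRAP libraries lie wholly above or wholly below the input libraries of the same genotype, and the low point of Vamp2 is TRAP WT library 3 at 1344 CPM.

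SNARE proteins form the bundle that drives fusion: VAMP proteins (Vamp1 to Vamp4) on vesicles, and syntaxin 1 (Stx1a) and the SNAP-25 family on the plasma membrane. Among the 8 measured here, the synaptobrevins Vamp1 and Vamp2 were higher in TRAP and Snap25, Stx1a, Snap23 and Vamp3 were lower in both genotypes. Vamp2, the main neuronal synaptobrevin, was at 962, 965, 893 and 867 CPM in input WT and 894, 917 and 1056 CPM in input KO. Its TRAP values were 2493, 2745 and 1344 CPM in WT and 2639, 2298, 2231 and 2382 CPM in KO. WT library 3 was far below the other 6 TRAP libraries but still above every input library. The log2 fold change was 1.24 ± 0.18 in WT (edgeR adjusted p = 3.18e-05) and 1.33 ± 0.19 in KO (adjusted p = 2.67e-05); without TRAP WT library 3 the WT value was 1.49. Vamp1 stood at 253, 230.4, 272 and 265 CPM in input WT and 236, 239 and 239.7 in input KO, and at 487, 470.1 and 460.0 CPM in TRAP WT and 442, 422, 386 and 464 in TRAP KO. These groups did not overlap, and the fold change was 0.89 ± 0.10 in WT (edgeR adjusted p = 1.67e-06) and 0.85 ± 0.10 in KO (adjusted p = 3.74e-06). With library totals, however, Vamp1 did not pass in either genotype (0.07 in WT and 0.11 in KO).

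Snap25, the plasma membrane SNARE of most neurons, was the most abundant member per length in input WT (1208 ± 42.4 CPM per kb, SD, n = 4), and Vamp2 was in TRAP WT (995 ± 339 CPM per kb, SD, n = 3, ahead of Cplx1 at 926 ± 18.4 and Snap25 at 800.1 ± 142), although these 3 differ by less than the spread of Vamp2. With the median transcript length in place of the longest, Cplx1 (1546 CPM per kb) came before Vamp2 (1322) in TRAP WT. Snap25 fell (-0.60 in WT and -0.59 in KO). Snap47, a relative without a membrane anchor, was measured at 131, 136, 146 and 146 CPM in input WT, 152, 123 and 160.4 in input KO, 204, 172 and 141 in TRAP WT and 193, 208, 227 and 206 in TRAP KO. WT library 3 lies within the input range and all 4 KO libraries lie above it. The fold change was 0.30 ± 0.13 in WT (edgeR adjusted p = 0.0506) and 0.52 ± 0.13 in KO (adjusted p = 0.00303), and without TRAP WT library 3 Snap47 also passed in WT (0.42, adjusted p = 0.00615), as it did without input KO library 2 (0.30, adjusted p = 0.0456). Snap47 shares 11.6% of its exon bases with Jmjd4 on the other strand. Vamp4, which serves endosomal trafficking, had values of 0.27 in WT and 0.25 in KO and crossed the threshold in WT alone; 11 of the 14 fits that left out 1 library lost that call, and its KO value passed without TRAP WT library 2 or 3 (adjusted p = 0.0245 and 0.0154). Stx1a fell (-1.45 in WT and -1.68 in KO), from 12.2 ± 2.47 CPM (n = 4, SD) in input WT to 4.59 ± 1.96 CPM (n = 3, SD) in TRAP WT, Snap23 fell (-1.81 in WT and -2.25 in KO), and Vamp3 fell (-1.74 in WT and -1.73 in KO).

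Complexins clamp and then promote fusion by binding the assembled SNARE complex, and they gave the widest split between relatives in WT. Cplx1 (Entrez 12889) was at 867, 851, 852 and 808 CPM in input WT and 805, 824 and 907 CPM in input KO, and at 2027, 1989 and 2069 CPM in TRAP WT and 1954, 1856, 1760.0 and 2000.0 CPM in TRAP KO. Cplx2 (Entrez 12890) was at 1111, 1010.0, 1141 and 1169 CPM in input WT and 1126, 1021 and 1075 CPM in input KO, and at 257, 225 and 67.0 CPM in TRAP WT and 234, 230.2, 261 and 157 CPM in TRAP KO. Every TRAP library was above input for Cplx1 and below it for Cplx2, with WT library 3 and KO library 4 the lowest for Cplx2. The log2 fold change of Cplx1 was 1.26 ± 0.09 in WT (edgeR adjusted p = 2.21e-08) and 1.16 ± 0.09 in KO (adjusted p = 8.78e-08). That of Cplx2 was -2.65 ± 0.34 in WT (edgeR adjusted p = 8.41e-06) and -2.25 ± 0.31 in KO (adjusted p = 1.81e-05), or 6.26-fold lower in WT, and without TRAP WT library 3 the WT value was -2.25. Within a library, the log2 ratio of Cplx1 to Cplx2 counts was -0.39 ± 0.12 (n = 4, SD) in input WT and 3.69 ± 1.09 (n = 3, SD) in TRAP WT, a difference of 4.08, and the difference in KO was 3.47. In all 7 input libraries Cplx2 had the higher count, and in all 7 TRAP libraries Cplx1 did.

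Because the complexins split most widely in WT (in KO the shift of Rims3 to Rims4, -3.50, was slightly larger in size), the promoters of both genes are shown, as RefSeq gives them on build GRCm38.p6, from 250 bases before to 50 bases after the gene start and on the strand of the gene; capitals mark a match to CCCNNGGG. Cplx1 starts on the minus strand (chr5:108549978-108550277) and Cplx2 on the plus strand (chr13:54302306-54302605).
Cplx1: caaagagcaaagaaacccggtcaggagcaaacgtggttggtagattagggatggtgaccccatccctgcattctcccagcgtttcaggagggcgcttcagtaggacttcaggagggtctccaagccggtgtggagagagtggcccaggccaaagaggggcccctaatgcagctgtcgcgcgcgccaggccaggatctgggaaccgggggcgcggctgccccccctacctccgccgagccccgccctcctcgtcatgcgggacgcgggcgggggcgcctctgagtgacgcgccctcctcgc
Cplx2: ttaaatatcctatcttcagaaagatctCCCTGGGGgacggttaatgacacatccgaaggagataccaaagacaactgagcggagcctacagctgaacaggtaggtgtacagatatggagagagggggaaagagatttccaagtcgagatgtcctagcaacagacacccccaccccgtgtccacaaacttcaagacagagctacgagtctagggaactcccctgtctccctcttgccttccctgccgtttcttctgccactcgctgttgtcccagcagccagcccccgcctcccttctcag
The Cplx1 promoter is 67.0% G and C with 24 CpG dinucleotides, the Cplx2 promoter 53.3% with 9, and the medians over the 32851 promoters of the table are 52.7% and 7. Of the 51 members, 36 had a promoter in the table. In all, 3 short sequences were searched on both strands: AGGTCA, the core of binding sites of ROR nuclear receptors; CCCNNGGG, the core bound by EBF factors; and TCAGCACC, a stretch of the element bound by REST. AGGTCA was found in 6 of the 36 (16.3% of all promoters), CCCNNGGG in 5 (13.7%) and TCAGCACC in 3 (1.65%). A member counted if any of its promoters matched, whereas the percentages are per promoter, so the 2 are not the same measure. Neither AGGTCA nor TCAGCACC was in the 2 complexin windows, and CCCNNGGG was in the Cplx2 window once. The member promoters with AGGTCA belonged to 2 of 8 genes called higher in WT, 3 of 21 called lower and 1 of 7 without a call. For CCCNNGGG these were 2 of 8, 3 of 21 and 0 of 7, and for TCAGCACC 1 of 8, 1 of 21 and 1 of 7. These matches are descriptions of the letters and not binding sites.

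The other 2 genes of this family were lower as well. Tomosyn (Stxbp5), which competes with synaptobrevin for syntaxin, fell (-1.85 in WT and -1.86 in KO). Cplx3, a complexin of ribbon synapses, had 16 to 71 counts in the input libraries and 2 to 8 in the TRAP libraries, close to the detection floor, and passed as lower in both genotypes; its ratio rests on these few counts.

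NSF and its adaptors, the SNAP proteins alpha (Napa) and beta (Napb), take spent SNARE complexes apart. Napb, the brain isoform, fell (-1.31 in WT and -1.23 in KO). Napa, the widely expressed isoform, was measured at 241, 238, 245 and 228 CPM in input WT, 231, 208 and 259 in input KO, 289, 269 and 311 in TRAP WT and 238, 265, 261 and 279.8 in TRAP KO. Its TRAP WT libraries lay above input WT, its KO groups overlapped, and the fold change was 0.29 ± 0.10 in WT (edgeR adjusted p = 0.017) and 0.15 ± 0.10 in KO (adjusted p = 0.175); leaving out TRAP WT library 1 or 3 ended the WT call (adjusted p = 0.0587 and 0.0518), and library totals turned it to -0.53. Within a library, Napb had more counts than Napa in all 7 input libraries and fewer in all 7 TRAP libraries. Nsf gave -0.09 in WT and -0.25 in KO, with no call in either, but in KO it passed as lower without TRAP WT library 3 or input KO library 2 (adjusted p = 0.0439 and 0.0371).

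Munc13 proteins open syntaxin and so ready docked vesicles for fusion; Unc13a and Unc13b encode Munc13-1 and Munc13-2, and Unc13c encodes Munc13-3, known as the cerebellar form. Unc13a was at 151, 156, 167 and 183 CPM in input WT, 139, 138 and 164 in input KO, 66.6, 65.0 and 120.4 in TRAP WT and 75.4, 81.7, 84.7 and 78.0 in TRAP KO. Unc13c was at 119, 115, 116 and 122 CPM in input WT, 146, 138 and 145 in input KO, 33.8, 29.3 and 22.6 in TRAP WT and 33.3, 44.05, 43.3 and 32.5 in TRAP KO. Both were below input in every TRAP library, and WT library 3 was the highest of all TRAP libraries for Unc13a. The fold change of Unc13a was -0.96 ± 0.17 in WT (edgeR adjusted p = 1.62e-04) and -0.90 ± 0.17 in KO (adjusted p = 2.17e-04). Without TRAP WT library 3 the WT value of Unc13a was -1.32. For Unc13c it was -2.06 ± 0.15 in WT (edgeR adjusted p = 2.74e-08) and -1.89 ± 0.14 in KO (adjusted p = 3.91e-08). Within a library, the log2 ratio of Unc13a to Unc13c counts in TRAP exceeded that in input by 1.04 in each genotype. Unc13b was the low member, at 11.2 ± 0.612 CPM (n = 4, SD) in input WT and 19.2 ± 6.24 CPM (n = 3, SD) in TRAP WT. It rose by 0.79 in WT (edgeR adjusted p = 0.00137) and by 0.45 without TRAP WT library 3 (adjusted p = 0.00758), and the KO value of 0.39 did not pass (adjusted p = 0.0671). In KO it did pass without TRAP WT library 3 (0.39, adjusted p = 0.00705), TRAP WT library 1 (0.0405), TRAP KO library 3 (0.0314) or input KO library 2 (0.0493), and with quality weights (0.00137).

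The lowest ratios of single members, those of Pclo, Rims1 and Rims3, were among the active zone scaffolds in both genotypes. By family median, tomosyn with the complexins was lower (-1.92 in WT and -1.99 in KO) than the active zone family (-1.7 and -1.64). RIM proteins recruit calcium channels and Munc13, ELKS proteins (Erc1, Erc2) bind RIM, RIM-BP2 (Rimbp2) links RIM to the channels, and bassoon and piccolo are very large scaffolds. Of 9 genes, 6 were lower, 1 was higher and 2 had no call, in WT and in KO alike. Piccolo (Pclo, Entrez 26875, chromosome 5) had the lowest ratio of all members in WT. It was at 148, 147, 162 and 175 CPM in input WT and 167, 207 and 162 in input KO, and at 21.4, 23.0 and 16.9 CPM in TRAP WT and 31.0, 39.0, 30.1 and 10.7 in TRAP KO. TRAP KO library 4 was the lowest, and no TRAP library came near input. The fold change was -2.98 ± 0.31 in WT (edgeR adjusted p = 9.68e-07) and -2.67 ± 0.28 in KO (adjusted p = 1.22e-06), 7.91-fold lower in WT. Bsn, the fourth lowest of the 9 in WT after Rims1 and Rims3, was at 259, 261, 253 and 291 CPM in input WT, 311, 285 and 283 in input KO, 48.8, 48.5 and 55.03 in TRAP WT and 59.7, 68.2, 65.7 and 34.4 in TRAP KO. Here too TRAP KO library 4 was the lowest, and the fold change was -2.40 ± 0.19 in WT (edgeR adjusted p = 8.38e-08) and -2.35 ± 0.18 in KO (adjusted p = 5.98e-08).

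The 4 RIM genes parted. Rims1, the main large RIM, was at 133, 132, 138 and 154 CPM in input WT, 148, 146 and 176 in input KO, 25.6, 9.004 and 26.4 in TRAP WT and 14.2, 29.4, 25.3 and 23.0 in TRAP KO. Rims3, a short form that lacks most domains, was at 85.2, 70.2, 69.7 and 65.0 CPM in input WT, 84.8, 81.9 and 76.1 in input KO, 13.0, 4.11 and 15.7 in TRAP WT and 7.45, 14.5, 15.0 and 13.3 in TRAP KO. WT library 2 and KO library 1 were the lowest of their TRAP groups for both genes, and all TRAP libraries were below input. The fold change of Rims1 was -2.77 ± 0.33 in WT (edgeR adjusted p = 3.57e-06) and -2.77 ± 0.30 in KO (adjusted p = 1.69e-06). That of Rims3 was -2.73 ± 0.35 in WT (edgeR adjusted p = 8.51e-06) and -2.67 ± 0.33 in KO (adjusted p = 5.41e-06). Rims4, the other short form, was at 47.8, 40.9, 42.0 and 46.9 CPM in input WT, 45.1, 40.0 and 55.7 in input KO, 83.2, 23.2 and 109 in TRAP WT and 48.9, 82.0, 76.2 and 129 in TRAP KO. WT library 2 was again low and fell below input, the other 2 WT libraries were above every input library, and the mean difference did not pass in WT (0.71 ± 0.39, adjusted p = 0.107) or in KO (0.80 ± 0.40, adjusted p = 0.0807). Without TRAP WT library 2, Rims4 passed in both (1.12, adjusted p = 0.000602, and 0.75, adjusted p = 0.00545). Without TRAP WT library 3 its WT value was 0.23 (adjusted p = 0.63), and the KO value of 0.81 passed (adjusted p = 0.0489), so the size of the WT difference rests on which of these libraries is kept. Rims4 led the family per length in TRAP WT (14.4 ± 8.85 CPM per kb, SD, n = 3), a position that rests on 2 of the 3 libraries, and Rims2 led it in input WT (32.1 ± 0.816, SD, n = 4). Rims2 fell (-1.70 in WT and -1.64 in KO).

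The ELKS pair split by isoform. Erc1 fell from 154 ± 8.54 CPM (n = 4, SD) in input WT to 57.5 ± 5.18 CPM (n = 3, SD) in TRAP WT, a log2 fold change of -1.42. Exons of Erc1 share 11.8% of their bases with an antisense gene, so its counts and its ratio to Erc2 are uncertain. Erc2, the brain isoform also called CAST, rose from 24.4 ± 1.79 to 41.4 ± 5.40 CPM (0.77 in WT, edgeR adjusted p = 1.25e-04, and 0.86 in KO, adjusted p = 6.37e-05), although with library totals its fold change was -0.05 in WT and 0.12 in KO without a call. Rimbp2 gave 0.04 in WT and -0.14 in KO, with no call.

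Synapsins tether vesicles to each other and to actin. Syn2 fell (-0.95 in WT and -1.12 in KO), Syn3 fell (-1.30 in WT and -1.47 in KO), and Syn1 had no call. Syn1 was at 179.8, 206, 214 and 233 CPM in input WT, 232, 180.2 and 251 in input KO, 171, 149.5 and 213 in TRAP WT and 179.8, 184, 194 and 207 in TRAP KO, groups that overlapped, with a fold change of -0.21 ± 0.13 in WT (edgeR adjusted p = 0.159) and -0.24 ± 0.13 in KO (adjusted p = 0.109). Without TRAP WT library 3 it passed as lower in WT (-0.36, adjusted p = 0.0243), and in KO without TRAP WT library 2 or input KO library 2 (adjusted p = 0.0374 and 0.0399). Syn3 was at 32.1, 34.0, 24.9 and 30.1 CPM in input WT, 41.2, 33.3 and 45.5 in input KO, 12.2, 12.2 and 12.4 in TRAP WT and 14, 14.9, 13.7 and 15.5 in TRAP KO. Its TRAP libraries were all below input and lay close together within each genotype. Syn2 led the family per length in input WT (81.0 ± 3.19 CPM per kb, SD, n = 4) and Syn1 in TRAP WT (54.6 ± 9.95, SD, n = 3, against 42.1 ± 3.50 for Syn2). Timp3 lies within Syn3 on the other strand and shares 14.1% of its exon bases.

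Synaptophysin (Syp) and the synaptogyrins are abundant multi-pass membrane proteins of the vesicle, and this was the one family with more members higher than lower in TRAP. Syp was at 624, 678, 716 and 718 CPM in input WT, 567, 669 and 567 in input KO, 1131, 1677 and 977 in TRAP WT and 1402, 1149, 1360.0 and 886 in TRAP KO. All TRAP libraries were above all input libraries, with WT library 2 the highest and KO library 4 the lowest. The fold change was 0.88 ± 0.19 in WT (edgeR adjusted p = 6.54e-04) and 1.00 ± 0.19 in KO (adjusted p = 3.43e-04). Syngr3 was at 72.0, 71.4, 73.0 and 72.6 CPM in input WT, 59.7, 69.6 and 60.2 in input KO, 117, 132 and 200.2 in TRAP WT and 119, 112, 129.5 and 102 in TRAP KO. Again no TRAP library fell into the input range, and WT library 3 was well above the rest. The fold change was 1.05 ± 0.15 in WT (edgeR adjusted p = 2.53e-05) and 0.86 ± 0.16 in KO (adjusted p = 2.25e-04), and 0.76 in WT without that library. Syngr1 rose by 0.42 in WT and 0.56 in KO, but without TRAP WT library 3 the WT call was lost (0.30, adjusted p = 0.0562), as it was with a mean count of at least 50 (0.21, adjusted p = 0.149). With library totals none of these 3 passed as higher in either genotype, and Syngr1 turned negative (-0.40 in WT, -0.17 in KO). Synaptoporin (Synpr), a synaptophysin relative known from mossy fiber terminals of the hippocampus, fell (-1.995 in WT and -1.92 in KO). Exons of Syp share 16.8% of their bases with an antisense gene.

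SV2 proteins are transporter-like glycoproteins of the vesicle. Sv2b fell (-1.80 in WT and -1.54 in KO). Sv2a, the common isoform, was at 235, 273, 298 and 318 CPM in input WT, 264, 235 and 241 in input KO, 254, 350.2 and 137 in TRAP WT and 311, 279.9, 339.8 and 230.3 in TRAP KO. WT library 3 was the lowest of all 14 and WT library 2 the highest, and neither genotype passed (-0.18 ± 0.24 in WT and 0.23 ± 0.24 in KO). Without TRAP WT library 2 Sv2a passed as lower in WT (-0.62, adjusted p = 0.0313), and without TRAP WT library 3 and TRAP KO library 4 it passed as higher in KO (0.31, adjusted p = 0.0211). Sv2c was at 11.02, 9.81, 10.2 and 16.3 CPM in input WT, 12.7, 13.7 and 11.5 in input KO, 5.20, 2.25 and 16.7 in TRAP WT and 4.72, 4.91, 4.63 and 7.79 in TRAP KO. In WT library 3 it stood above every input library, while the other 6 TRAP libraries were below every input library. Sv2c passed as lower in KO (-1.26 ± 0.44, edgeR adjusted p = 0.0191) and not in WT (-0.53 ± 0.44, adjusted p = 0.289), but without TRAP WT library 3 it passed in WT as well (-1.73, adjusted p = 4.12e-04), and without input KO library 2 the KO call was lost (-1.16, adjusted p = 0.0536).

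Relatives were next compared inside each library, where the scaling between libraries plays no part. In 17 pairs of related genes and 2 genotypes, the log2 ratio of the 2 counts was compared between TRAP and input by an exact two-sided permutation test over the 35 splits of 7 libraries, whose smallest possible p is 0.0286. The ratio differed in 30 of 34 tests at that p (adjusted p = 0.0324), 15 of 17 pairs in each genotype. The share among pairs of other genes was not computed, so whether this count is particular to related release genes was not tested. Of all single genes, 75.5% (WT) and 75.9% (KO) were called between TRAP and input by edgeR, which is a different measure. The largest shifts toward the first gene were Cplx1 over Cplx2, Syp over Synpr (2.85 in WT, 3.00 in KO), Sv2a over Sv2b (1.52 and 1.85) and Napa over Napb (1.59 and 1.43). The largest toward the second were Rims3 to Rims4 (-3.35 in WT and -3.50 in KO), Doc2a to Doc2b (-2.51 and -2.69), Erc1 to Erc2 (-2.18 and -2.40) and Syt1 to Syt11 (-1.81 and -2.36). Vamp1 against Vamp2 gave no difference past the threshold in WT (exact permutation p = 0.343), nor did Bsn against Pclo in KO (p = 0.171, exact), nor did Sv2a against Sv2c in either genotype (exact p = 0.571 in WT and 0.0571 in KO). The leading member per length differed between TRAP and input in 6 of the 10 families in WT and in 7 in KO, and in 4 of 10 in each when the median transcript length replaced the longest.

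**Figure D3:**
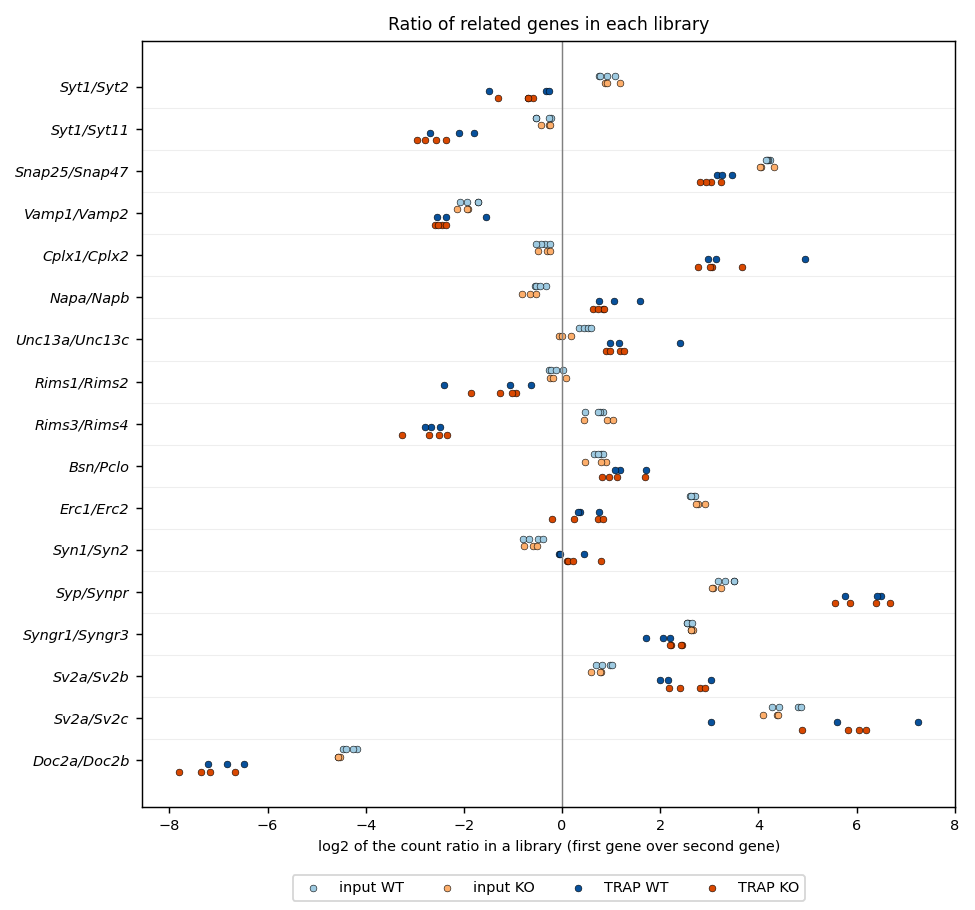
Log2 ratio of the counts of 2 related genes in each of the 14 libraries, with input WT and KO in pale colours and TRAP WT and KO in dark ones. For Cplx1/Cplx2 the input libraries lie just left of 0 and the TRAP libraries between 2.76 and 4.95; for Vamp1/Vamp2 and Sv2a/Sv2c the TRAP WT libraries spread over the input libraries.

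Beyond the 51 genes, 49 other genes of vesicle release were in the table and 48 were tested. In WT 14 were higher (29.2%) and 26 lower (54.2%) in TRAP (median -0.61), beside 37% and 38.5% of all genes. In KO 10 were higher (20.8%) and 25 lower (52.1%, median -0.52), beside 36.3% and 39.6% of all genes. The highest by ratio in WT were Cplx4, Snph and Rimbp3. Cplx4, a complexin of ribbon synapses, had 0 to 5 counts in the input libraries and 4 to 38 in TRAP, at the detection floor. Syntaphilin (Snph), which anchors axonal mitochondria, rose from 95.2 ± 4.88 CPM (n = 4, SD) in input WT to 389 ± 58.1 CPM in TRAP WT (SD, n = 3; log2 fold change 2.03 in WT and 1.90 in KO), and Rimbp3 rose by 1.98 in WT and 1.07 in KO from under 1 CPM, with WT library 3 (3.15 CPM) far above the other TRAP libraries. In KO Stxbp2 (1.91), a Munc18 protein, stood just above Snph, and Rab3a (1.72), a vesicle GTPase, above Rimbp3. The lowest were Stxbp5l, a second tomosyn, at -2.63 in WT and -2.70 in KO, and Baiap3 and Syt10, whose TRAP counts were 1 to 6 and 0 to 30. Among 7 vesicular transporters, of which 6 were tested, the GABA transporter Slc32a1 rose by 1.52 in WT and 1.17 in KO. Its level in TRAP was 209.5, 198 and 543 CPM in WT and 197, 222, 275 and 216 CPM in KO, with WT library 3 far above the other 6. The glutamate transporters Slc17a7, used by granule cells, and Slc17a6 fell (-1.84 and -1.64 in WT, -1.95 and -1.66 in KO).

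The members were also set beside the granule cell markers, whose TRAP over input log2 fold changes lay between -3.03 and -1.84 (WT) or between -2.80 and -1.77 (KO). In WT 13 members lay inside that range: Syt1, Syt9, Syt13, Syt17, Stxbp5, Cplx2, Cplx3, Unc13c, Rims1, Rims3, Bsn, Pclo and Synpr. In KO 14 did, the same 13 and Snap23. No member lay below it, and the share of all genes inside it was not counted. How far granule cell RNA carried into the TRAP libraries sets these low levels was not tested. Transcript length also moved with the ratio: the median longest transcript was 2.88 kb for the 12 genes called higher in WT, 4.08 kb for the 30 lower and 4.33 kb for the 9 without a call. Across the 51 genes Spearman's rho between length and log2 fold change was -0.28 in WT and -0.265 in KO, beside -0.315 and -0.338 across 14868 genes that share these libraries, and the part of length in the result was not tested.

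No member passed the threshold between Astn2 KO and WT in either fraction. In TRAP, 0 of the 50 genes tested (Cplx3 was too low) differed between KO and WT (edgeR quasi-likelihood test, adjusted p under 0.05; 0.00707% of 14145 genes were called). None of the 50 was at an unadjusted p under 0.05 either, where 1.5% of all genes were, and the DESeq2 Wald test called none. With quality weights 10 members (20%) were at an unadjusted p under 0.05, beside 9.86% of all genes. Without TRAP WT library 2 there were 3 (6% beside 7.08%), as with all 14 libraries in 1 fit (5.88% beside 7.46%), and none was called in any of these fits. The estimates were within 0.5 of 0 on the log2 scale for 49 of 50 genes, and their median standard error of 0.21 limits the size of change that these libraries could show. The largest was 0.63 ± 0.39 for Syt17. Libraries of the 2 genotypes did not overlap for 1 gene, Syn3, higher in KO in the TRAP values above (1.8% of all genes were higher and 2.69% lower in this sense); its log2 fold change was 0.26 ± 0.16. The smallest unadjusted p belonged to Unc13c, whose TRAP values ranged from 22.6 to 33.8 CPM in WT and from 32.5 to 44.05 CPM in KO (0.41 ± 0.20), followed by Snap47 (0.28 ± 0.17) and Syn3.

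In input, 0 of 51 genes passed (0.0188% of 15997 genes were called, 0.00625% higher and 0.0125% lower in KO), and 11 (21.6%) were at an unadjusted p under 0.05, beside 13.7% of all genes. That count rested on single libraries: it was 21 (41.2%, beside 20.3% of all genes) without input KO library 2, 18 (35.3% beside 15.8%) without input WT library 1 and 3 (5.88% beside 5.86%) without input KO library 3. Libraries did not overlap for 7 genes higher and 3 lower in KO (6.1% and 4.24% of all genes). The 3 smallest p-values were those of Unc13c, Syt3 and Doc2b. Unc13c measured 119, 115, 116 and 122 CPM in WT and 146, 138 and 145 CPM in KO, every KO library above every WT library (0.27 ± 0.06, edgeR adjusted p = 0.187). Syt3 measured 42.7, 41.5, 40.4 and 40.2 CPM in WT and 34.5, 39.2 and 30.6 CPM in KO, all KO values lower (-0.33 ± 0.08, adjusted p = 0.189), and in TRAP 18.2, 22.2 and 19.7 CPM in WT and 17.3, 20.8, 25.4 and 15.9 CPM in KO, which overlapped. Doc2b was higher in KO by 0.24 ± 0.06 (adjusted p = 0.189), again without overlap. The DESeq2 Wald test did call 4 of the 51 members in input. Unc13c (0.27, DESeq2 adjusted p = 0.0181), Doc2b (0.25, 0.0148) and Erc1 (0.32, 0.0481) were higher and Syt3 (-0.33, 0.0255) was lower. By that test 0.631% of all genes were higher and 1.19% lower (1.83% in all), so a larger share of the members was called. Without input KO library 2 edgeR called Syt3 (-0.37, adjusted p = 0.047), in a fit that called 0.336% of all genes higher and 0.647% lower. A difference between genotypes in the TRAP over input ratio passed for none of the 51 genes (edgeR interaction, adjusted p = 0.999 at the least, 0 members at an unadjusted p under 0.05, beside 2.68% of all genes, and none called by the DESeq2 Wald test). At that unadjusted p there were 5 members with quality weights (9.8% beside 10.1% of all genes) and 4 without TRAP WT library 2 (7.84% beside 11.9%). The largest interaction was -0.73 ± 0.62 for Sv2c. Of 34 tests of pair ratios between genotypes, 3 reached the smallest exact p of 0.0286 and none passed after adjustment (smallest adjusted p = 0.324). A single pair at that smallest p could not have passed the adjustment over 34 tests, however large its difference, so the lack of a pass says little. The largest difference was -0.57, for Cplx1 to Cplx2 in TRAP (exact permutation p = 0.429).

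**Figure D4:**
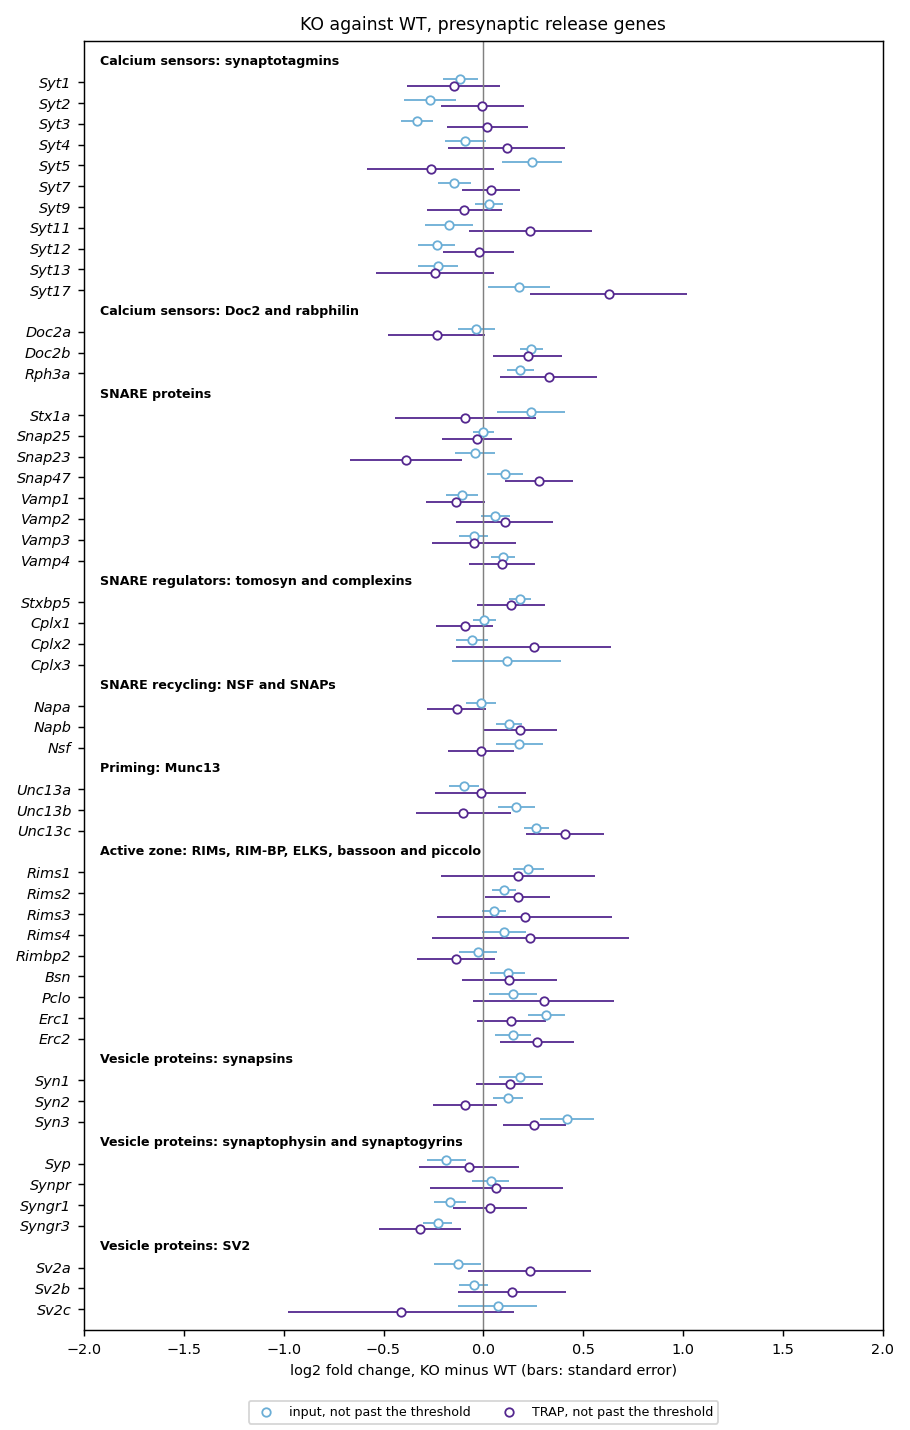
Log2 fold change of KO over WT for each gene with its standard error, in input (light blue) and in TRAP (purple); open points did not pass an adjusted p of 0.05. All points are open, and the bars are wider in TRAP (median standard error 0.21) than in input (0.0875).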

How the data were processed

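Gene counts of 14 libraries (input and TRAP, WT and KO) were used as the authors deposited them: whole-number counts per Entrez gene, not normalized. Per the submitters' processing notes Salmon 0.8.2 and mm10 were used, with no role stated; whether the counts are rounded estimates, the annotation and the strand are not given in the sources used here. Symbols came from the RefSeq table of GRCm38.p6 (24045 of 24100 genes, 51 of 51 members). The members and gene lists were chosen with earlier results of these data known.

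Differences were tested with the quasi-likelihood test of edgeR (version 4.0.16, limma 3.58.1, R 4.3.3), two-sided, with TMM factors, filterByExpr and Benjamini-Hochberg adjustment over all genes tested, called at an adjusted p under 0.05. TRAP against input and the interaction were fitted on all 14 libraries with group means and sex, and genotype on the 7 libraries of a fraction with sex. Standard errors are the absolute log2 fold change over the square root of F. Levels are CPM with TMM factors, per kb of the longest GENCODE M21 transcript where genes are compared; lengths were found for all 51 members. Pair ratios used a pseudocount of 0.5 counts, an exact permutation test and adjustment over 34 tests. The scripts were tested on simulated data, with changes set in randomly chosen genes and not in the members. A log2 change of 1 between KO and WT was called for 33% of the changed genes in TRAP and 80% in input.

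Values in every library are given for the 6 highest and 6 lowest members by TRAP over input in WT, the 3 members with the smallest p in each genotype contrast and the leading member of each family per length; Sv2c, and Slc32a1 in TRAP, were added after their values were seen. No 2 libraries of a group agreed within sampling noise (chi-square per degree of freedom 8.63 to 267 over 18 pairs). The deviations of same-numbered input and TRAP libraries correlated at 0.292, 0.243 and 0.0981 in WT and 0.225, 0.225 and -0.125 in KO. Sex was the same within each such couple. Same-numbered WT and KO libraries, which come from different mice, gave 0.0918, 0.143 and -0.0311 in input. In TRAP they gave -0.046, -0.196 and -0.0879. The labels state no pairs, so the numbers were not taken as pairs in the reported fits. Alternatives were DESeq2 1.42.0 size factors and Wald test, library totals, no filter, a mean count of at least 50, no sex covariate, quality weights, a replicate block, all 14 libraries in 1 fit, a pseudocount of 10, the median transcript length and each library left out; leaving out 2 TRAP libraries together, and the 12 libraries of the block without the block, were added after seeing the data.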

Additional observations from a re-analysis of the deposited data

Results flagged for a closer look

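Each member was examined in the 2 groups of 4 libraries, input WT and TRAP KO, for a library far from the other 3, as the gap to the nearest library over the whole range on the log2(CPM + 1) scale, and was set against Dixon's critical value for 4 libraries. Of 102 such values 5 were above it, and chance gives about 1 in 20. Syt4, a synaptotagmin, was low in input WT library 3 (177 CPM against 199 to 202 CPM, gap share 0.89). Erc1, an ELKS protein, was high in input WT library 4 (166 CPM against 148 to 150.1 CPM, 0.871). Syt5 was high in TRAP KO library 2 (2.77 CPM against 2.17 to 2.26 CPM, 0.836), at a low level of expression. Syn2, a synapsin, was low in TRAP KO library 4 (119.5 CPM against 167 to 168 CPM, 0.972). Sv2c was high in the same library (7.79 CPM against 4.63 to 4.91 CPM, 0.891), which also had the lowest summed level of granule cell markers; the part of those markers in these values was not tested.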

How the results depend on the processing

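The counts of members called in TRAP against input stayed within 1.5 times of those reported under DESeq2 size factors, the DESeq2 Wald test, no filter, a mean count of at least 50, no sex covariate, quality weights and each library left out in turn (WT 11 to 13 higher and 29 to 32 lower, KO 10 to 13 higher and 31 to 32 lower over the left-out fits). The exception was library totals, with 4 members higher in WT and 4 in KO and 41 and 38 lower, where 19.5% of all genes were higher in each genotype and 61.1% and 60.3% lower. Of the reported WT calls 3 turned from higher to lower and 5 were lost, and 8 members gained a call (in KO 0, 6 and 7); a shift common to all genes fixes that direction of change. Under library totals the WT fold change turned for Doc2a (-0.442), Snap47 (-0.514), Vamp4 (-0.556), Napa (-0.53), Unc13b (-0.0361), Rims4 (-0.0995), Rimbp2 (-0.778), Erc2 (-0.0485) and Syngr1 (-0.397), and the KO fold change for Syt11 (-0.69), Doc2a (-0.536), Snap47 (-0.211), Vamp4 (-0.484), Napa (-0.579), Unc13b (-0.347), Syngr1 (-0.167) and Sv2a (-0.507). A mean count of at least 50 turned Rimbp2 in WT (-0.169) and Syt11 (-0.145) and Napa (-0.0322) in KO, and quality weights turned Sv2a in WT (0.00141); the cause was not tested. Leaving out TRAP WT library 3 and TRAP KO library 4 together turned Rimbp2 (-0.0394) and Sv2a (0.131) in WT and left 13 higher and 31 lower members in WT.

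Over the fits without 1 library, values that changed sign were Rimbp2 (-0.0361 to 0.137) and Sv2a (-0.622 to 0.107) in WT, Syt11 (-0.0445 to 0.146) and Doc2a (-0.0194 to 0.31) in KO, and the Sv2a to Sv2c ratio in WT (-0.271 to 1.84). None of these had a call in the reported fit. In input, KO against WT gave 3 members higher and 1 lower by the DESeq2 Wald test and 0 to 1 lower over the left-out fits; the other counts of members called by genotype or interaction at an adjusted p were 0 in every alternative. Members at an unadjusted p under 0.05 were 0 to 10 in TRAP and 0 to 5 for the interaction, both highest with quality weights, and 2 to 21 in input. Exact tests with a library left out cannot pass the threshold, so they give a direction only. The replicate block took 12 of the 14 libraries and replaced sex. With it 10 members were higher and 29 lower in WT, and 10 and 31 in KO. Syt5, Vamp4 and Napa lost their WT call. Of these, Syt5 and Vamp4 also lost it in the same 12 libraries with sex and no block, a fit added after seeing the data. The Cplx1 to Cplx2 shift was 4.03 in WT and 3.29 in KO. Whether the numbers mark pairs could not be settled, and the block changed no other call. In TRAP the low count of Cplx3 and the spread between 3 or 4 libraries limit what the genotype tests can show.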

Other observations

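TRAP WT library 2 and TRAP KO library 1 shared low values of several release genes, which were picked out after their values were seen. Each was the lowest TRAP library of its genotype for Rims1 (9.004 and 14.2 CPM), Rims3 (4.11 and 7.45 CPM) and Rims4 (23.2 and 48.9 CPM), while Syp (1677 and 1402 CPM) and Vamp2 (2745 and 2639 CPM) were at their highest there. The same 2 libraries had the lowest Spearman correlation, within their genotype, between transcript length and a gene's deviation from the TRAP mean (-0.349 and -0.13 across 14868 genes, against -0.172 to 0.206 in the other 5 TRAP libraries). The part of length in these values was not tested.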
